A study of Homo sapiens with 2 samples.

Results

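The 10 genes EPCAM, CDH1, KRT7, KRT8, KRT18, KRT19, CLDN4, CLDN7, GRHL2 and ESRP1 are a core set of the human epithelial programme. They were chosen by name, with earlier results of these data known. All 10 were found among the 33694 gene rows of the count tables of an enteric neural crest differentiation. The culture was H9, a human embryonic stem cell line, sequenced as single cells by droplet 3′ RNA-seq at 2 stages. Per the study's methods, the monolayers had received SB431542 and CHIR 99021, with BMP4 at the start and retinoic acid towards the end. The day 10 library came from that adherent monolayer on Geltrex, within a 12-day induction. The day 15 library came from free-floating 3D crestospheres, formed in suspension from day 12 with FGF2 at 10 ng per ml and CHIR 99021 at 3 µM. Each stage is 1 library in which 2 biological repeats were pooled, and the repeats could not be separated. No test between groups was therefore possible, and every interval given here is an exact 95% interval (Poisson for levels, Clopper-Pearson for shares) that covers counting error only. Stage, culture format, medium, depth and library cannot be told apart.

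Epithelial cells are held together in sheets by adherens and tight junctions, and their cytoskeleton is built on keratin filaments that always pair a type I with a type II chain. Neural crest cells arise at the border of the neural plate and the surface ectoderm and leave the epithelium by an epithelial-mesenchymal transition, in which junction and keratin genes are classically switched off. Non-neural ectoderm, the precursor of the epidermis, and cranial placodes arise at the same border, so the epithelial genes help to show which cells of the culture kept an epithelial state.

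The day 10 library held 9627 cells and 70488169 unique molecular identifiers (UMIs, each the count of 1 captured transcript), and the day 15 library held 6320 cells and 84976253 UMIs. The authors kept 7295 and 5336 of these cells, with a median of 7101 and 11089 UMIs, and marked the others as filtered for low quality. At day 10 the kept cells were annotated as 4921 enteric neural crest cells (ENCCs), 1811 neuro-epithelial progenitors (NEP), 324 cranial placode cells (CP) and 239 non-neural ectoderm cells (NNE). At day 15 they were 4934 ENCCs, 208 and 43 cells of the cranial placode clusters CP1 and CP2, 104 NEP cells and 47 mesenchymal cells (Mes). The types are clusters of expression named by the authors. The NNE was named by EPCAM and CDH1, and the study's annotation genes for epithelial cells also include KRT19. The level of a member gene in a type is therefore a description and not a test. In total 102 barcodes occurred in both libraries, which is 1.06% of the day 10 and 1.61% of the day 15 cells. One of them was an NNE cell and 4 were day 15 NEP cells.

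The labels were checked against marker lists. All 4 NNE markers with at least 20 UMIs were higher in the NNE than in the ENCCs by at least 1 on the log2(CPM + 1) scale. CPM is the UMI count of a gene scaled to 1000000 UMIs of its type. Over the NEP, 3 of the 4 passed this limit and GATA3 did not. Of all genes with at least 20 UMIs, 12.9% passed it over the ENCCs and 6.06% over the NEP. The 6 NNE markers had a summed level of 773 CPM against 49.1 to 156 CPM in the other day 10 types. The basal keratin KRT5 had no UMI in any type, and the epidermal factor TP63 had 2.17 CPM in the NNE, so these genes of stratified epidermis were at or near 0. The 6 amnion and trophoblast markers had a summed level of 55.8 CPM in the NNE, of which GATA2 had 33.0, against 0.460 to 6.05 CPM in the other day 10 types. All 6 were higher in the NNE than in the ENCCs and than in the NEP by the same limit, but only 2 of them had at least 20 UMIs. The endoderm list had 1 gene with UMIs in the NNE, GATA6 at 26.0 CPM, with SOX17 and FOXA2 at 0. Of the 6 pluripotency markers 5 had UMIs in the NNE, with a summed level of 292 CPM. That sum was 347 CPM in the ENCCs, 334 in the NEP and 306 in the CP, and TDGF1 was at 0 in all types. The NEP label rested on WNT2B (827 CPM at day 10) and PAX6 (572 CPM), while the neural genes SOX1 and LHX2 lay at 0.214 and 0 CPM there. The CP had 748 CPM of the 6 placode markers, against 10.8 to 18.4 in the other types, together with 1164 CPM of the 6 ENCC markers, against 2108 in the ENCCs. At day 15 CP1 had 1222 CPM of the placode markers. CP2 had 323 CPM of them with no UMI of NEUROG1, against 12.3 CPM in the ENCCs, 11.3 in the NEP and 33.9 in the Mes. CP2 also had 381 CPM of PAX6, above the 112 CPM of the NEP, and 348 CPM of TFAP2A. The Mes had 478 CPM of its 6 markers against 270 in the NEP and 151 in the ENCCs. Whether amnion-like or endoderm-like cells had a part in the epithelial levels of the NNE was not tested.

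The members lie on 6 chromosomes, and in GENCODE 29 (GRCh38) KRT8 (chr12:52897187-52949954, minus strand) and KRT18 (chr12:52948871-52952901, plus strand) overlap by 1084 bases on opposite strands. KRT7 lies in the same keratin cluster at chr12:52232520-52252186 and shares 2887 bases of its strand with KRT86. CLDN7 shares 2187 bases of its strand with the protein-coding gene AC003688.1, which is not a row of the tables. It also overlaps ELP5 by 38 bases on the opposite strand. The strand setting of the counting was not given in the sources used here, so reads in these overlaps cannot be assigned with certainty. KRT8, KRT18 and KRT19 also have 50, 68 and 5 annotated pseudogenes, none of which is a row of the tables. CLDN4 (chr7:73799542-73832693, plus strand) and CLDN7 (chr17:7259903-7263983, minus strand) and KRT8 are the 3 members whose RefSeq promoters (GRCh38.p14) were scanned here. GRHL2 and ESRP1 were left out of the search for promoters, so whether they have an entry was not examined. The motif counts below cover the 3 scanned members only. The 30 bases just before a start of each claudin are shown because both claudins were highest in the same type, as given below. For CLDN7 the start with E-boxes is shown, and not the more distal one. Capitals mark the E-box CACCTG, the letters bound by factors of the SNAI and ZEB families, read on either strand.
CLDN4, chr7:73830966-73830995, plus strand: ccatataactgctcaacctgtccccgagag
CLDN7, chr17:7262479-7262508, minus strand: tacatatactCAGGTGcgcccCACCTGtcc
The 250 bases before that CLDN7 start held 4 E-boxes, at bases -174, -135, -20 and -9. At least 1 E-box was thus in 1 of the 4 windows scanned, and in 17.5% of the 35116 RefSeq promoter windows of that length. All 250 bases of this CLDN7 window, and all 250 of the CLDN4 window, lie in exons annotated in GENCODE 29. No E-box was found before the CLDN4 start, the more distal CLDN7 start or the KRT8 start. The grainyhead letters AACCGGTT, bound by the GRHL family, were in none of these 4 windows and in 0.117% of all windows. Such matches describe the letters only, on both strands, and no binding was measured here.

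At day 10 all 10 members were highest in the NNE, where 31.2% of the 14850 genes compared (those with at least 20 UMIs) had their highest level. Levels are in CPM of the summed cells of a type. EPCAM, a cell surface adhesion molecule of simple epithelia, had 248 CPM (225 to 271) in the NNE, 9.62 in the NEP, 2.92 in the ENCCs and 1.60 in the CP. CDH1, the E-cadherin of adherens junctions, had 94.2 CPM (80.8 to 109) in the NNE, 1.64 in the NEP, 0.352 in the ENCCs and 0.798 in the CP. For both genes the NNE stood apart from all other types, and the CP interval overlapped that of the ENCCs and, for CDH1, that of the NEP.

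The tight junction claudins were likewise highest in the NNE and next highest in the NEP. CLDN4 had 194 CPM (174 to 215) in the NNE, 3.78 in the NEP, 1.03 in the ENCCs and 0.798 in the CP. CLDN7 had 349 CPM (322 to 377) in the NNE, 4.49 in the NEP, 0.677 in the ENCCs and 0.798 in the CP. Between the ENCCs and the CP neither claudin differed beyond counting error.

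The keratins of simple epithelia were the members with high levels in a second type. The type II keratin KRT8 had 1601 CPM (1544 to 1660) in the NNE, 483 (471 to 494) in the NEP, 41.2 (39.2 to 43.4) in the ENCCs and 32.7 (26.0 to 40.6) in the CP. Its type I partner KRT18 had 2151 CPM (2085 to 2219) in the NNE, 538 (526 to 550) in the NEP, 41.8 (39.8 to 44.0) in the ENCCs and 19.5 (14.5 to 25.8) in the CP. The type I keratin KRT19 followed at 1225, 266, 15.3 and 10.4 CPM. KRT7, the type II keratin of ductal and other simple epithelia, was unlike them. It had 352 CPM (325 to 380) in the NNE, 3.63 in the NEP, 0.704 in the ENCCs and no UMI in the CP.

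The regulators were sparse. GRHL2, a grainyhead-like transcription factor that maintains epithelial junction genes, had 13.5 CPM (8.76 to 20.0) in the NNE on 25 UMIs, 0.499 in the NEP on 7 UMIs and 0.0812 in the ENCCs on 3 UMIs. ESRP1, an RNA-binding protein that drives epithelial splice forms, had 50.9 CPM (41.1 to 62.3) in the NNE, 1.14 in the NEP and 0.460 in the ENCCs. Neither had a UMI in the CP, and for both the NEP and ENCC intervals overlapped.

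**Figure D1:**
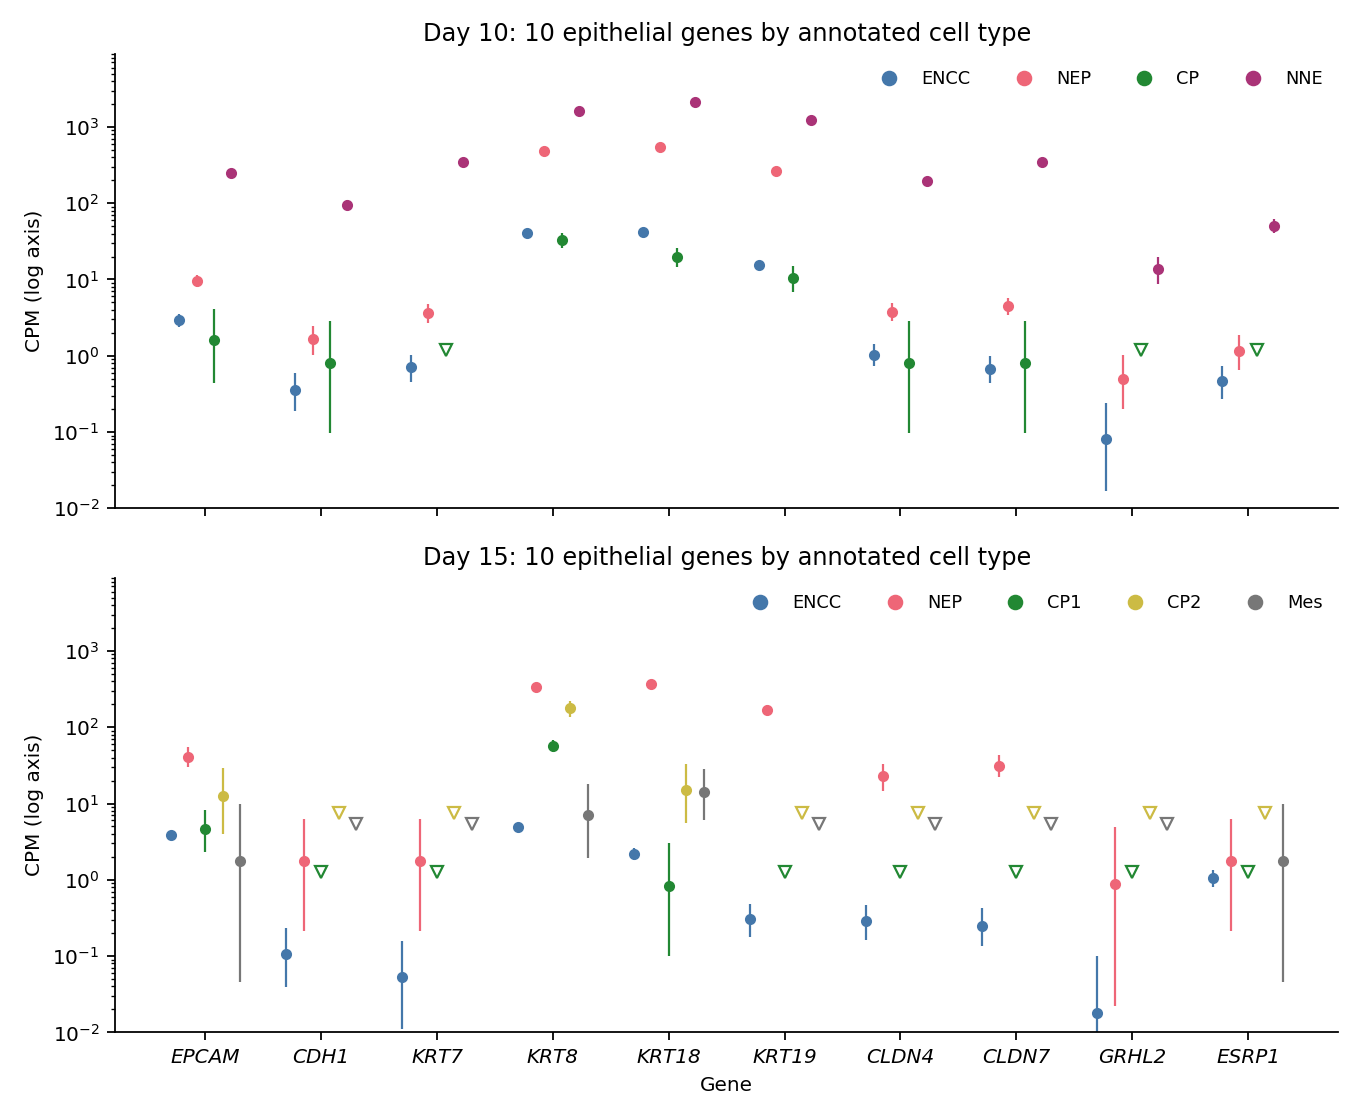
Level of each member gene in each annotated type, in CPM on a log axis, at day 10 (top) and day 15 (bottom); points are summed levels, bars are exact 95% Poisson intervals whose lower ends can run off the axis, and open triangles mark types with no UMI, drawn at the level that 3 UMIs would give. At day 10 the NNE is highest for all 10 genes, and KRT8, KRT18 and KRT19 have a second level in the NEP, at 266 to 538 CPM.

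By a rule of at least 1 on the log2(CPM + 1) scale, all 10 members were higher in the NNE than in the ENCCs, where 12.9% of all genes were. The linear ratios ran from 38.8 for KRT8 to 516 for CLDN7, and the median log2 ratio was 6.06 against 0.09 over all genes. All 10 were also higher in the NNE than in the NEP, against 6.06% of all genes, with a median of 4.57 against -0.08. The NEP was higher than the ENCCs for 7 of 10 members, against 14.4% of all genes, with a median of 1.44 against 0.20, and lower for none, against 2.49%. That count rested in part on 33 of the 1811 NEP cells, which held at least 5 members each when all UMIs were used. They held 36 of the 63 CLDN7, 31 of the 51 KRT7 and 18 of the 23 CDH1 UMIs of the type, but 4.07% of its KRT8 and 4.20% of its KRT18 UMIs. Without them, an alternative chosen after the data were seen, 4 members passed the limit over the ENCCs (EPCAM, KRT8, KRT18 and KRT19, against 14.4% of all genes), with a median of 0.80. The 33 cells were chosen by these genes, so some fall was fixed by the choice. Of genes that did not choose them, WNT2B had 309 CPM (250 to 379) in the 33 cells against 839 in the rest of the NEP, and TFAP2A 109 (74.8 to 153) against 8.74. Their median depth was 9098 UMIs, against 7227 in the type, and the part of depth or of droplets with more than 1 cell was not tested.

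All 10 members had UMIs in both the NNE and the NEP, but the ratio between the types was not alike for all of them. The NNE to NEP ratio was 3.32 (3.18 to 3.46) for KRT8, 4.00 (3.85 to 4.15) for KRT18 and 4.61 (4.37 to 4.86) for KRT19. For the other 7 members it ran from 25.7 (21.2 to 31.4) for EPCAM to 96.8 (72.7 to 131) for KRT7. This division into 3 keratins and 7 other genes was made after the values were seen. Without the 33 NEP cells with at least 5 members the ratios of the 3 keratins were 3.38, 4.08 and 4.79, whereas that of EPCAM was 33.3 (26.8 to 41.7), that of CLDN7 177 (121 to 271) in place of 77.7, that of KRT7 241 (155 to 398) and that of CDH1 259 (109 to 807), on 5 NEP UMIs, in place of 57.5. All 10 members were still higher in the NNE by the limit of 1, against 6.18% of all genes.

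The NEP was 24.8% of the kept day 10 cells and held most of their UMIs of 3 keratins. It held 59.8% of the KRT8, 57.6% of the KRT18 and 56.7% of the KRT19 UMIs, while the NNE held 26.1%, 30.3% and 34.3%. The other 7 members had between 64.9% (EPCAM) and 89.4% (KRT7) of their UMIs in the NNE, which was 3.28% of the kept cells. At day 15 the ENCCs, 92.5% of the kept cells, held 77.0% of the EPCAM and 95.2% of the ESRP1 UMIs, and the NEP, 1.95% of the kept cells, held 91.9% of the KRT19 and 75.8% of the KRT18 UMIs. These shares leave out the cells that the authors filtered, which held from 32.2% (KRT19) to 44.2% (KRT7) of a member's UMIs at day 10 and from 29.6% (EPCAM) to 82.8% (KRT7) at day 15.

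**Figure D2:**
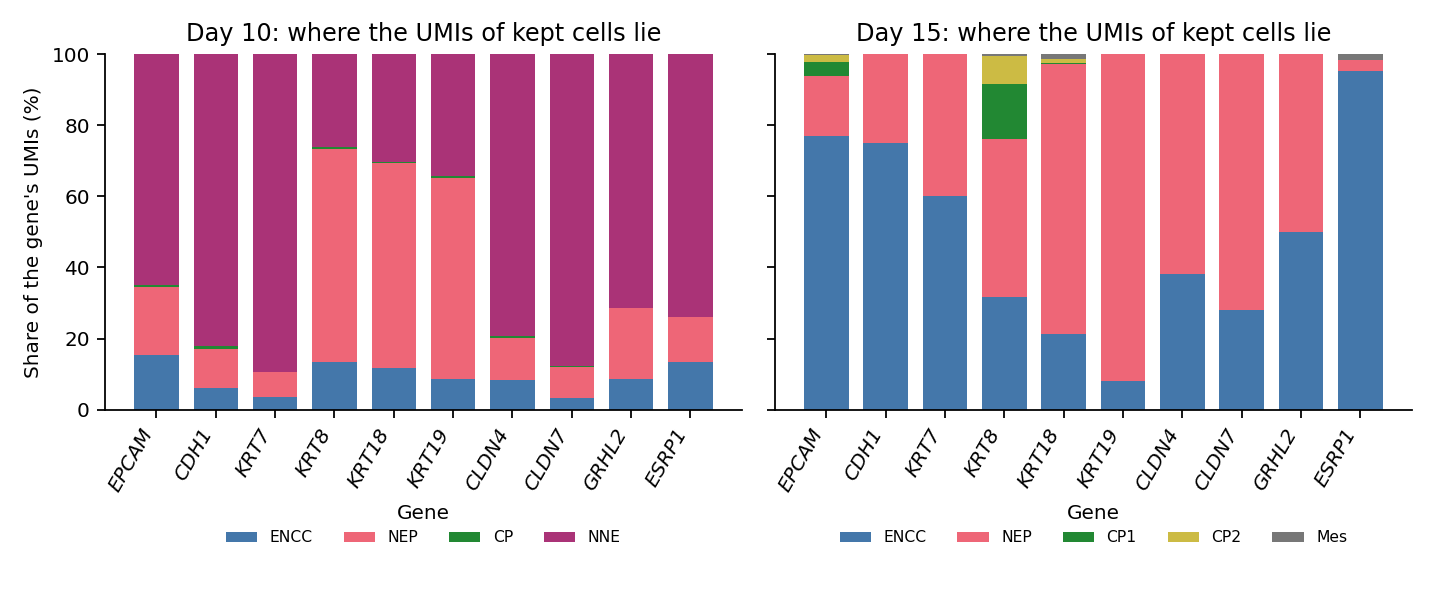
Share of each gene's UMIs (%) that lay in each annotated type, among the kept cells of day 10 (left) and day 15 (right); bars add up to all UMIs of the gene. At day 10 the NNE holds 64.9% to 89.4% of the UMIs of 7 members and 26.1% to 34.3% of those of KRT8, KRT18 and KRT19.

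Single cells were compared after each was thinned to 3000 UMIs, which left 235 of the 239 NNE, 1798 of the 1811 NEP and 4919 of the 4921 ENCCs. KRT8 was then detected in 95.7% of the NNE cells, KRT18 in 94.9% and KRT19 in 91.9%. CLDN7 was detected in 60.4%, KRT7 in 55.3%, EPCAM in 52.3%, CLDN4 in 43.8%, CDH1 in 23.8%, ESRP1 in 14.5% and GRHL2 in 3.83%. In the NEP, KRT8 was detected in 61.1%, KRT18 in 58.9% and KRT19 in 42.3% of the cells, and no other member in more than 2.67%. KRT8 and KRT18 were thus detected in most NEP cells and KRT19 in fewer. In the ENCCs of the numbered subclusters, a crest type with a median depth of 6943 UMIs against 7227 in the NEP, the shares were 6.22% for KRT8, 6.30% for KRT18 and 1.18% for KRT19. Without thinning, KRT18 in NNE cells ran from 0 to 148 UMIs per 10000 with a median of 15.3, and in NEP cells from 0 to 96.0 with a median of 2.91. The single-cell ranges of the types overlapped.

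Counted over the 10 members, the median NNE cell held 5, the median NEP cell 2 and the median ENCC 0 members. At least 5 members were found in 78.7% of the NNE cells (185 of 235, 72.9 to 83.8), in 0.667% of the NEP cells (12 of 1798) and in 0 of 4919 ENCCs (upper limit 0.0750%). All 3 of KRT8, KRT18 and KRT19 were detected together in 85.5% of the NNE and 23.9% of the NEP cells, whereas any of the other 7 members was detected in 97.9% and 5.51%. With all UMIs used, 228 of the 239 NNE cells, 33 of the 1811 NEP cells and 6 of the 4921 ENCCs held at least 5 members. With 2 UMIs required per gene after thinning, the share of the NNE was 18.3%.

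**Figure D3:**
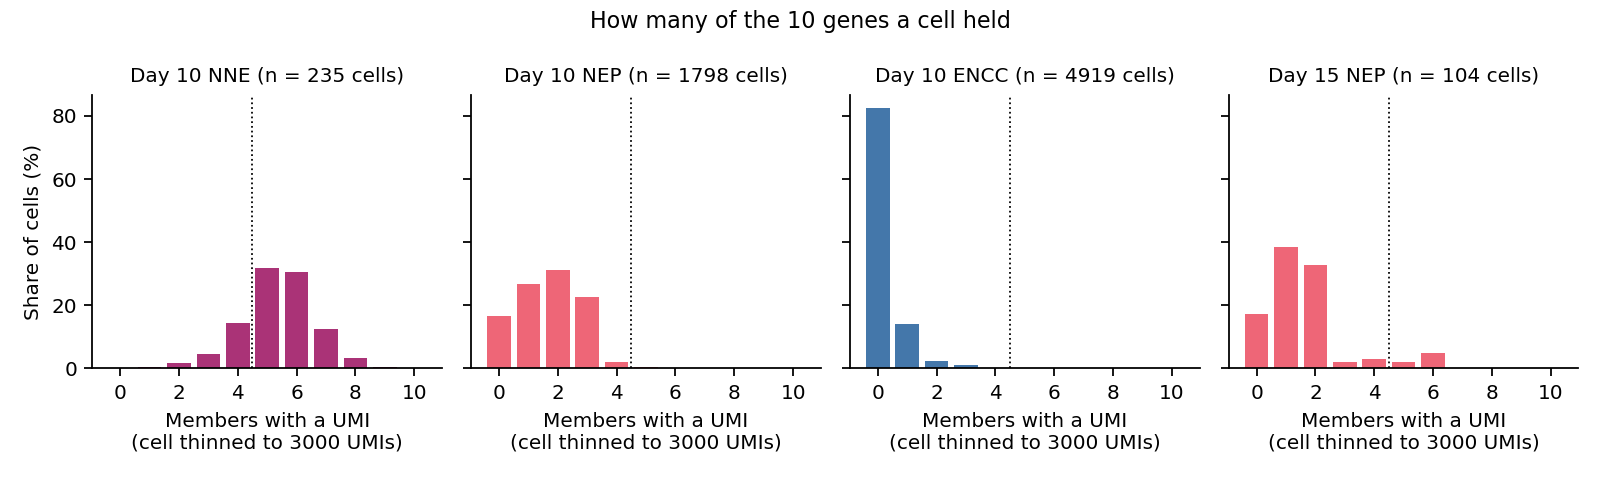
Share of cells (%) by how many of the 10 genes had a UMI, after thinning each cell to 3000 UMIs, in the day 10 NNE, NEP and ENCCs and the day 15 NEP; the dotted line marks the limit of 5 members. In the NNE 78.7% of the cells lie at 5 or more, against 0.667% of the day 10 NEP, none of the ENCCs and 6.73% of the day 15 NEP.

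Within the NNE, cells with more of one keratin tended to have more of the others. Spearman correlations over the 235 thinned cells of this library were 0.56 for KRT8 with KRT18, 0.43 for KRT8 with KRT19, 0.42 for KRT18 with KRT19 and 0.36 for KRT7 with KRT18. CLDN7, detected in more of these cells than KRT7 (60.4% against 55.3%), had 0.03 with KRT18, -0.07 with KRT7 and 0.001 with EPCAM. EPCAM had 0.17 with KRT18. All are descriptions over cells of 1 library that share their depth. The correlations of the sparsest genes, CDH1, ESRP1 and GRHL2, lay near 0 or below and say little at these counts. By the cell cycle phases that the authors annotated, the summed level of the 10 members in the NNE was 6351 CPM (6206 to 6498) in G1, 6023 (5763 to 6292) in S and 6282 (6028 to 6544) in G2M cells. The ratio to G1 was 0.948 (0.902 to 0.997) for S and 0.989 (0.943 to 1.04) for G2M, so the S level was slightly lower beyond counting error. In the day 10 NEP it was higher in S phase, at 1633 CPM (1583 to 1684), than in G1 at 1249 and G2M at 1219. There KRT18 had 760 CPM in S against 483 in G1 and KRT8 608 against 458, whereas KRT19 had 237 against 288.

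The ENCCs of day 10 were not uniform in their keratins. Among them, 256 cells had a crest cell type but no numbered subcluster, their subtype being given as non-crest. Per the study's supplement, crest cells were set aside before subclustering for placode gene expression. By markers, however, most ENCC UMIs of the NEP genes WNT2B and PAX6 lay in these 256 cells. The numbered subclusters held only 373 of the 1833 WNT2B and 232 of the 1263 PAX6 UMIs of all ENCCs. They also held only 68 of the 277 GATA3 UMIs. These 256 cells had 348 CPM of KRT8 (324 to 373), 353 of KRT18 and 190 of KRT19, and held 782 of the 1524 KRT8 UMIs of all ENCCs. They had little of the junction members, with 7.56 CPM of EPCAM and 1.33 of CLDN7. The 4665 ENCCs in numbered subclusters had 21.4 CPM of KRT8 (19.9 to 23.0), 21.7 of KRT18 and 4.01 of KRT19. The 3 keratins of the set-aside cells thus lay between the levels of the NEP and of the numbered subclusters.

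Levels in the numbered ENCCs were set against those of the whole library, beside 3 genes that mark other types of the culture. These were at 3.51% (3.16 to 3.89) of their library level for WNT2B, 3.25% (2.84 to 3.70) for PAX6 and 5.01% (3.89 to 6.35) for GATA3. EPCAM was at 17.1% (13.8 to 21.0), ESRP1 at 15.4% (lower limit 8.80), KRT8 at 8.85% (8.22 to 9.51) and KRT18 at 7.45% (lower limit 6.93), with intervals above those of all 3 genes. CLDN4 was at 8.72% (5.88 to 12.4), CDH1 at 6.65% (3.32 to 11.9) and GRHL2 at 7.26% on 2 UMIs, with intervals that overlapped that of GATA3. CLDN7 at 3.78% (2.37 to 5.73), KRT7 at 3.13% (1.91 to 4.83) and KRT19 at 2.91% (2.44 to 3.43) were no higher than the 3 genes beyond counting error, and no difference between the crest and background can be read from their UMIs. No profile of empty droplets was used here, and the part of free RNA was not tested.

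At day 15 the NNE was no longer an annotated type, and 9 of 10 members were highest in the NEP. The exception, ESRP1, was highest in the Mes on 1 UMI. Among the 7 members with at least 20 UMIs, 6 were highest in the NEP, against 24.3% of the 14315 genes compared, and 6 passed the log2 limit of 1 over the ENCCs, against 19.4% of all genes. The NEP levels pool 2 unlike groups of cells, which are given apart further on. EPCAM had 41.0 CPM (30.1 to 54.5) in the NEP, 12.4 in CP2, 4.61 in CP1, 3.83 in the ENCCs and 1.78 in the Mes. KRT8 had 341 CPM (308 to 376) in the NEP, 177 (138 to 223) in CP2, 56.9 (47.8 to 67.4) in CP1, 7.13 in the Mes and 5.00 (4.43 to 5.62) in the ENCCs. KRT18 had 374 CPM in the NEP, 14.9 in CP2, 14.3 in the Mes, 2.17 in the ENCCs and 0.837 in CP1.

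KRT19 and the claudins had low levels outside the NEP. KRT19 had 168 CPM in the NEP and 0.304 in the ENCCs, CLDN7 31.4 and 0.251, and CLDN4 22.7 and 0.286, with no UMI of these 3 in CP1, CP2 or the Mes. With no UMI the exact upper limit was 1.54 CPM in CP1, 9.18 in CP2 and 6.58 in the Mes. CDH1, KRT7 and ESRP1 rested on 2 UMIs each and GRHL2 on 1 UMI in the NEP, which is too few to order the types.

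The keratin pair parted in the placode clusters of day 15. KRT8 held 42.7% (41.5 to 43.8) of the KRT8 and KRT18 UMIs in the NNE, 47.3% (46.5 to 48.1) in the day 10 NEP, 47.7% (44.2 to 51.2) in the day 15 NEP and 49.7% in the ENCCs of day 10. In the day 10 CP it held 62.6% (53.7 to 70.9). In CP2 it held 92.2% (83.8 to 97.1), with 71 KRT8 and 6 KRT18 UMIs, and in CP1 98.6% (94.9 to 99.8), with 136 and 2. The day 15 ENCCs lay between, at 69.8% (65.0 to 74.2), and the Mes, with 4 KRT8 and 8 KRT18 UMIs, could not be placed. CP1 and CP2 thus had KRT8 transcripts with few of KRT18 and none of KRT19. In CP1 KRT8 was at 260% (218 to 307) of its library level and KRT18 at 6.10% (0.738 to 22.0). Transcripts were measured, and not the proteins that pair in filaments.

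**Figure D4:**
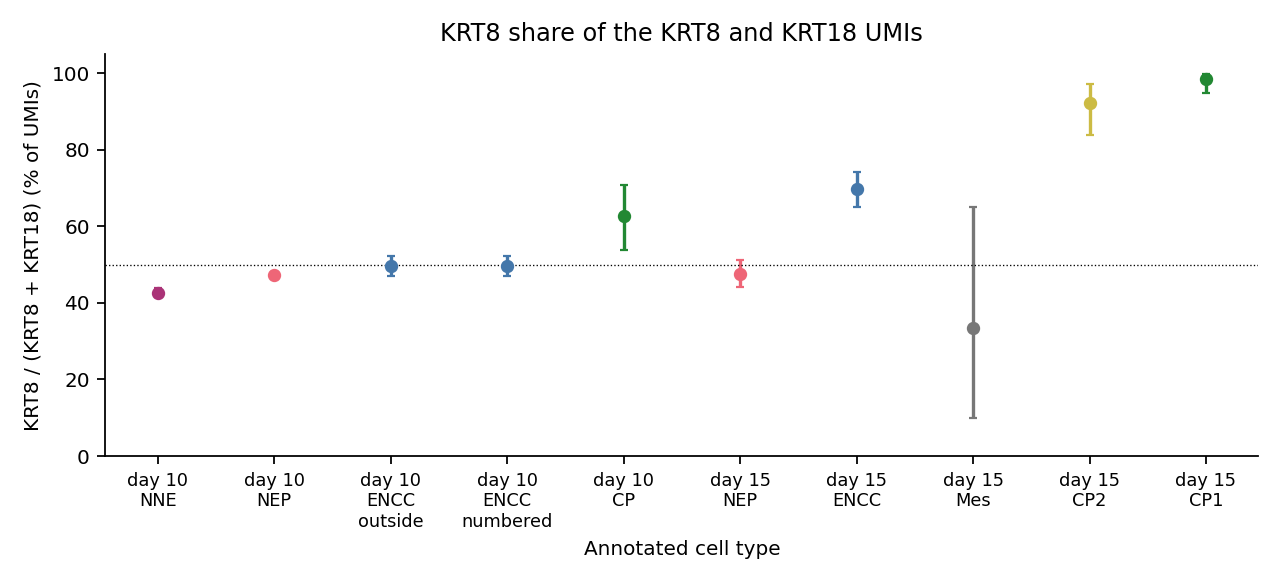
KRT8 as a share (%) of the KRT8 and KRT18 UMIs of each annotated type, with exact 95% Clopper-Pearson intervals and a dotted line at equal counts; ENCC outside and ENCC numbered are the day 10 crest cells without and with a numbered subcluster. NNE, NEP and day 10 ENCCs lie between 42.7% and 49.7%, and CP2 and CP1 at 92.2% and 98.6%.

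Apart from KRT8 and KRT18, the UMIs of the members in the day 15 NEP came mostly from a few of its cells. By members per cell, with all UMIs used, 94 of the 104 cells held 0 to 4 members and 10 held 5 to 8, with only 2 and 1 cells at 4 and 5. The 10 cells held all 36 CLDN7 UMIs of the type, both UMIs of CDH1, KRT7 and ESRP1, 32 of the 47 EPCAM UMIs and 134 of the 193 KRT19 UMIs. These shares describe the choice of the cells and support nothing. Their KRT19 level was 1240 CPM (1039 to 1468) against 56.8 (43.2 to 73.2) in the other 94 cells, whose KRT8 and KRT18 levels were 270 and 336 CPM and which held 71.9% and 81.4% of the UMIs of these 2 genes.

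Genes that did not choose these 10 cells also differed between them and the rest of the type. Beside the markers, those named here were picked after their values were seen. The NEP markers WNT2B and PAX6 had no UMI in the 10 cells, where 3 UMIs would give 27.8 CPM, against 136 and 124 CPM in the others. The intermediate filament gene VIM had 1184 CPM (988 to 1408) against 4080. The surface ectoderm factor TFAP2A had 139 CPM (77.7 to 229) against 1.92, the keratin KRT23 185 (113 to 286) against 0.962, the claudin CLDN6 305 (210 to 429) against 2.89 and the epithelial trafficking GTPase RAB25 148 (84.6 to 240) against 1.92. The median depth was 10776 UMIs in the 10 cells and 10954 in the type, and none of the 10 carried a barcode shared with day 10. The label NEP therefore did not hold for them by its own markers, and they are given no other name here. Without them, an alternative chosen after the data were seen, the day 15 NEP had no CLDN7 UMI, 6.74 CPM of CLDN4 and 14.4 CPM of EPCAM. Of the 7 members with at least 20 UMIs, 5 were then higher than in the ENCCs by the limit of 1 (EPCAM, KRT8, KRT18, KRT19 and CLDN4), against 19.9% of all genes.

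The mix of members in these 10 cells was not that of the day 10 NNE in each ratio, and as the cells were chosen by the members the shares are a description. KRT7 held 5.26% (0.644 to 17.7) of the KRT7 and CLDN7 UMIs, against 50.2% (47.4 to 53.0) in the NNE. CDH1 held 5.88% (0.720 to 19.7) of the CDH1 and EPCAM UMIs, against 27.6% (24.1 to 31.2). CLDN7 held 31.0% (22.8 to 40.3) of the CLDN7 and KRT18 UMIs, 36 of 116, against 14.0% (lower limit 13.0) in the NNE. In the other 94 cells it held none of 349.

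Over whole libraries, 8 of 10 members were lower at day 15 by at least 1 on the log2(CPM + 1) scale, where 8.05% of the 17135 genes compared were, and none was higher, where 6.75% were. The median of the members was -2.83 and that of all genes -0.13. Fewer epithelial cells and less RNA per cell cannot be told apart in such sums. KRT18 went from 291 to 13.7 CPM (log2 ratio -4.31), KRT19 from 138 to 6.15 (-4.28), KRT7 from 18.4 to 0.341 (-3.86) and KRT8 from 242 to 21.9 (-3.40). CLDN7 went from 16.8 to 1.18 CPM (-3.03), CLDN4 from 9.92 to 0.765 (-2.63), CDH1 from 4.77 to 0.247 (-2.21) and EPCAM from 15.4 to 4.65 (-1.53). GRHL2, from 0.794 to 0.0353 CPM (-0.79), and ESRP1, from 2.99 to 1.11 (-0.92), did not pass the limit on this scale, which understates the change of low genes. The median depends on that scale, being -1.59 with 5 CPM and -3.63 with 0.1 CPM added in place of 1.

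Within the ENCCs, which were annotated at both stages, KRT8, KRT18 and KRT19 passed the limit of 1 and no other member did on this scale. KRT8 went from 41.2 to 5.00 CPM (-2.82), KRT18 from 41.8 to 2.17 (-3.76) and KRT19 from 15.3 to 0.304 (-3.65). That was 3 of the 8 members with at least 20 UMIs, against 5.66% of the 15038 genes compared, and none was higher, where 6.55% were. The median of all 10 members was -0.54 against -0.12 over all genes (-1.35 for the members with 0.1 CPM added in place of 1). Without the 256 set-aside cells of day 10 and the 27 of day 15, an alternative chosen after the data were seen, the log2 ratios were -1.97, -2.84 and -1.98. For KRT19, 428 of the 567 ENCC UMIs of day 10 lay in the 256 set-aside cells. In the numbered ENCCs it stood at 2.91% of its library level at day 10 and at 4.39% (2.46 to 7.24) at day 15, while the library level was 22.4-fold lower at day 15, so for KRT19 a fall in the crest cells and the fall of the whole library cannot be told apart. Of the members that did not pass, KRT7 was 13.1-fold lower in the ENCCs by linear CPM (4.01 to 67.6), on 26 and 3 UMIs. CLDN4 was 3.59-fold (1.95 to 6.90), CDH1 3.28-fold (1.16 to 10.5) and CLDN7 2.70-fold lower (1.35 to 5.62). The interval of GRHL2 spanned no change. Whole-library levels of KRT7, CLDN4, CDH1 and CLDN7 were 54.0-, 13.0-, 19.3- and 14.2-fold lower, and the part of free RNA was not tested.

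EPCAM and ESRP1 were not lower in the crest cells of day 15. EPCAM had 2.92 CPM at day 10 and 3.83 at day 15 (ratio 1.31, 1.04 to 1.67), and ESRP1 0.460 and 1.06 (ratio 2.30, 1.32 to 4.20). With the intervals covering counting error only and 1 library per stage, neither ratio can be held against a spread between cultures. In the numbered ENCCs of day 15, EPCAM was at 82.5% and ESRP1 at 96.0% of the library level, while WNT2B was at 56.6%, GATA3 at 17.7% and PAX6 at 3.04%. Among the crest subclusters of day 15, ESRP1 had 2.32 CPM (1.40 to 3.62) in ENCC 3′, 1.98 (0.408 to 5.78) in ENCC 4′ on 3 UMIs, 0.894 in ENCC 2′ and 0.685 (0.365 to 1.17) in ENCC 1′. EPCAM lay between 2.56 and 4.63 CPM in all 4, with overlapping intervals.

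Scaling changes the balance of all genes but not of the members. With TMM scaling, which shifts the log2 ratios by 0.20 for whole libraries and 0.19 for ENCCs, the share of lower genes among those past the limit was 42.8% in place of 54.4% for whole libraries and 34.2% in place of 46.4% for ENCCs. The members past the limit were still 8 of 10 and 3 of 8, all lower.

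**Figure D5:**
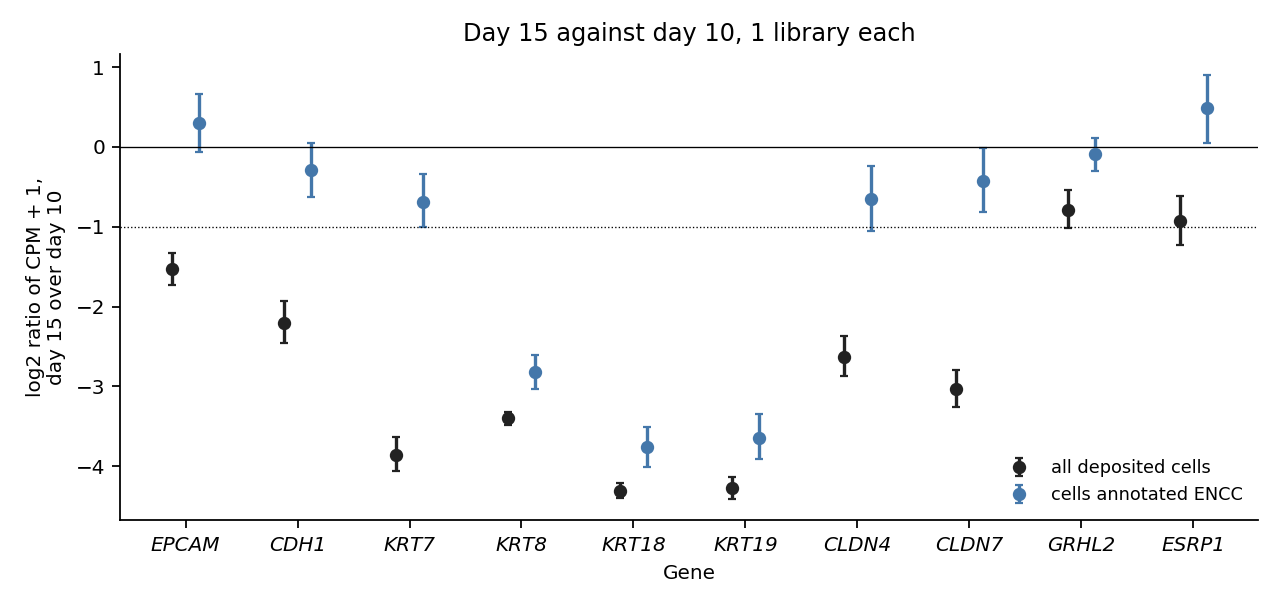
Log2 ratio of CPM + 1, day 15 over day 10, for each member in all deposited cells (black) and in cells annotated ENCC (blue), with exact 95% intervals for counting error and a dotted line at the limit of -1. In all cells 8 genes lie below the limit; in ENCCs KRT8, KRT18 and KRT19 do, and EPCAM (0.30) and ESRP1 (0.49) lie above 0.

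The other epithelial genes were described by lists, counted over the genes with at least 20 UMIs in the kept cells, at day 10 in the NNE against the ENCCs by the same limit of 1 on the log2 scale, which 12.9% of all genes passed upwards and 7.0% downwards. Of 19 other claudins and tight junction genes, 13 were higher and none lower (median 2.68), led by CLDN6 at 410 CPM against 2.30. The junctional adhesion molecule gene F11R had 54.2 CPM against 5.90. TJP1, the scaffold ZO-1, had 108 CPM against 89.2. Against the NEP in place of the ENCCs, 8 of the 19 were higher in the NNE and 2 lower, against 6.06% and 12.0% of all genes. Those 2 were CLDN1, with 1.08 CPM in the NNE and 26.7 in the NEP, and CLDN11, with 0.542 and 3.85. Of 14 adherens junction and desmosome genes, 11 were higher than in the ENCCs and none lower (median 3.17). Among them were the desmosomal genes PERP (224 CPM against 10.9) and DSP (180 against 3.30). CTNNB1, the beta-catenin that binds cadherins, had 182 CPM against 116.

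All 11 epithelial transcription and splicing factors were higher (median 3.45), with TFAP2A at 400 CPM against 35.6, ELF3 at 181 against 0.920 and GATA3 at 159 against 7.50. Of 12 surface protease and trafficking genes, 11 were higher, with CD24 at 641 CPM against 181, the protease inhibitor SPINT2 at 481 against 22.8 and RAB25 at 159 against 1.89. Of the 2 other keratins with enough UMIs, KRT23 was higher, at 22.2 CPM against 0.0812, and KRT10 had 79.1 and 65.8. Of 9 mesenchymal counterparts none was higher and 6 were lower (median -1.78). VIM had 311 CPM against 934, the N-cadherin gene CDH2 4.87 against 31.9 and the cadherin CDH6 5.96 against 50.6. ZEB2, a repressor of CDH1 named after its values were seen, had 12.5 against 145, whereas SNAI2 had 39.0 and 39.1.

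In the day 15 NEP against the ENCCs, a limit passed upwards by 19.4% and downwards by 7.24% of genes, 10 of 14 tight junction genes were higher, 7 of 12 adherens junction and desmosome genes, 5 of 7 factors, all 5 surface genes and, of the keratins, KRT23. TFAP2A was lower, at 14.8 CPM against 41.9. Of 10 mesenchymal counterparts 3 were higher, VIM, CDH2 and CDH11, and 3 lower, ZEB2, SNAI1 and SNAI2. These sums again pool the 10 cells with at least 5 members and the other 94. CLDN6 had 305 CPM in the 10 cells against 2.89 in the others, ELF3 46.3 against 1.92 and SPINT2 435 against 101, while VIM had 1184 against 4080 and CDH2 64.8 against 179. DSP (194 against 73.1 CPM), PERP (250 against 140) and LSR (64.8 against 45.2) had transcripts in both groups.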

How the data were processed

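Droplet 3′ single-cell libraries (Chromium v3.1) were made of H9-derived cultures at day 10 and day 15, 1 library per stage, each a pool of 2 biological repeats. The deposited tables hold UMI counts per gene and cell. The submitters' processing notes name Cell Ranger, Seurat 4.0.4 and GRCh38, whereas the study's methods name kallisto and bustools for counting. The authors demultiplexed by hashtags in Seurat, filtered cells on genes, UMIs and mitochondrial share, clustered them and named the types, and their annotation was used as deposited. No doublet caller is named or was run here. Counts were summed per type and scaled to counts per 1000000 (CPM). Comparisons used log2(CPM + 1), genes with at least 20 UMIs (in both stages together, or in the kept cells of a library for comparisons of types, lists included), and a limit of 1. Cells were thinned to 3000 UMIs for detection. Shares of UMIs and levels have exact 95% intervals, and PCR or culture error is not in them. Python 3.11.15, scipy 1.17.1 and edgeR 4.0.16 (TMM factors only) were used, and the scripts were tested on simulated data. Members and lists (128 of 129 list genes matched, 2 of them by an older symbol) were chosen with earlier results of these data known. Named genes were the members, the 3 with the highest level of each list, any against their list, and the 10 most like the members. The authors also deposited, per cell, the percentage of mitochondrial UMIs, used here as a description, and a novelty score that was not used.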

Additional observations from a re-analysis of the deposited data

Results flagged for a closer look

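Both results below lie in cells that the authors filtered out and that no comparison between types used. At day 10, 4.59% of these cells (81 of 1766 with enough UMIs for thinning) held at least 5 of the 10 members. The limit for flagging was 0.170%, the share that 3 cells would make. With all UMIs used there were 133 of them, which was 33.3% of all 400 day 10 cells with at least 5 members, against 57.0% in the NNE. Their median depth was 13136 UMIs, against 7486 in the corresponding NNE cells, and their median mitochondrial share was 5.04% against 3.63%. They had 2086 CPM of KRT18, 245 of CLDN7 and 68.2 of CDH1, and, unlike those NNE cells with 14.5 CPM, 217 CPM of WNT2B. The part of depth, of mitochondrial share or of droplets with more than 1 cell was not tested.

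At day 15, 0.508% of the filtered cells (5 of 984) held at least 5 members, against a limit for flagging of 0.305%, set in the same way. With all UMIs used there were 9, which was 47.4% of the 19 such cells of the library, and the other 10 were in the NEP. Their median depth was 17040 UMIs. They had 1789 CPM of KRT19, 152 of KRT7, 132 of ESRP1 and 179 of KRT23, and no UMI of WNT2B, PAX6 or SOX10.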

How the results depend on the processing

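No paired analysis was possible because each stage is 1 library, and for the same reason no library could be left out. Of 27 alternative values for the main results 17, and of 40 for single genes 30, stayed within the counting interval of the reported value (or, for counts of genes, within 1.5 times), and none changed direction. The 10 members were highest in the NNE under all 3 alternatives, and 9, 9 and 8 in the day 15 NEP, where CDH1 and GRHL2 were not highest by share of cells. Without the NEP cells that hold at least 5 members, chosen after the data were seen and by the members themselves, 4 in place of 7 members were higher in the day 10 NEP than in the ENCCs, 5 in place of 6 at day 15, and all 10 in the NNE than in the NEP. The median log2 ratio of whole libraries (-2.83) was -1.59 with 5 CPM added, -3.63 with 0.1 CPM added and -3.40 over the 7 members with at least 5 CPM. That of the ENCCs (-0.54) was -1.35 with 0.1 CPM added and -3.65 over the 3 members with at least 5 CPM. The share of NNE cells with at least 5 members (78.7%) was 93.3% at 5000 UMIs, 95.4% without thinning and 18.3% with 2 UMIs required per gene, and that of the day 15 NEP (6.73%) was 1.92% with 2 UMIs required. The 10 single-gene values that moved were 3 with numbered ENCCs only (chosen after the data were seen), 3 with TMM scaling and 4 with kept cells only. Depth limits GRHL2, on 25 UMIs in the NNE, and CDH1, KRT7, GRHL2 and ESRP1 in the day 15 types.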

Other observations

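Outside the members, the genes whose levels over the 9 annotated types of both libraries were most like those of the 10 members were the membrane serine protease PRSS8 (r = 0.993), SP6, CA3, PRSS16, AP1M2, KDF1, S100A14, RIPPLY3, TINAGL1 and SH2D4A (r = 0.979). PRSS8 and AP1M2 were also in the list of surface and trafficking genes. The measure was Pearson's r of log2(CPM + 1) with the mean of the standardised members, over 7603 genes that reached 20 CPM in a type. The 9 types come from 2 libraries and were clustered on expression, so r is a description. With a limit of 10 CPM, 9 of the 10 genes were named again. In the day 10 NNE they lay between 24.9 CPM (S100A14) and 134 CPM (TINAGL1), in the day 10 NEP between 1.42 and 9.40 CPM, and in the ENCCs under 1 CPM. AP1M2, the subunit of the adaptor that sorts proteins to the basolateral membrane, had 85.6 CPM in the NNE, 1.85 in the day 10 NEP and 5.23 in the day 15 NEP. KDF1, a regulator of epidermal differentiation, had 26.5, 1.92 and 5.23 CPM in the same types.

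By the same measure, each member's own r with the mean of the other 9 members ran from 0.793 for KRT8 to 0.977 for CLDN7. KRT18 and KRT19 had 0.868 each and ESRP1 0.871, so the 3 keratins with a level in the NEP and the splicing factor with UMIs in the day 15 ENCCs were the least like the rest.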
